A study of Mus musculus with 17 samples.

Results

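The cytosolic ribosomal protein genes encode the protein parts of the ribosome that works in the cytoplasm. They were taken by symbol: every probe set on either of the 2 array types that is annotated to a single gene named Rpl or Rps with a number, or Rplp0, Rplp1, Rplp2 or Rpsa, without the Rps6k kinases and pseudogene symbols. This gave 59 probe sets of 45 genes among 13069 probe sets in all. The large subunit accounted for 39 probe sets of 30 genes and the small subunit for 20 probe sets of 15 genes. All 45 genes were found in RefSeq by gene identifier, where Rps4l is listed as a transcribed pseudogene, although its symbol met the rule. Rplp1, Rps27a and Rpl3l had no probe set that met the rule. A further 24 probe sets carry several symbols of which at least 1 is ribosomal, and these were not counted.

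RNA came from liver and hippocampus of male Rj:NMRI mice, an outbred stock, whose age is not given in the labels. The mice ate purified powdered diets until day 57 or 58 and had food until the night before they were killed. All diets shared 1 base with milk fat, palm olein, sunflower, soybean and medium chain oils. The control diet had neither test oil, the fungal oil diet held 1.1% of an oil rich in arachidonate, the fish oil diet held 1.9% of an oil rich in docosahexaenoate, and the last diet held both oils. Each diet was fed to 10 mice, housed 10 per cage, and 5 of them were selected for expression analysis. Cage cannot be told apart from diet, and which mice were killed on which of the 2 days is not given. For liver there were 2 RNAs of control mice and a single RNA for every oil diet. Hippocampus had a single RNA for every diet, control included. Whether RNA of several mice was combined is not given in the sources used here. Every RNA was hybridised to chip A and chip B, except that for hippocampus on both oils chip A was not analysed here, which leaves 17 arrays.

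Each ribosome is built from a small subunit, which reads the messenger RNA, and a large subunit, which joins the amino acids. One copy of nearly every ribosomal protein goes into each ribosome, so cells make these proteins in matched amounts, largely through translation of messenger RNAs that start with a C followed by a run of pyrimidines, the 5′ terminal oligopyrimidine or TOP motif. That motif ties their translation to growth signalling through mTOR and Larp1. Liver is rich in rough endoplasmic reticulum and exports most plasma proteins, and hippocampal neurons translate part of their messenger RNA in dendrites. Many ribosomal protein genes have processed pseudogenes, and an array probe set ending in f_at is, in the maker's naming, one whose probes may match a family of like sequences.

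Start regions of 8 members named below are printed, because the TOP motif, where present, lies at the start of transcription. They are not a sample of all members. Rpl5 and Rpl10, also named below, have C-led pyrimidine runs of only 3 bases near their annotated starts and are not printed. The sequences are RefSeq's, build GRCm38.p6, from 40 bases before the annotated start to 20 bases from it on, along the transcript. Capitals mark the longest run of at least 5 pyrimidines that opens with C within 10 bases of the annotated start.
Rpl27a, chr7:109519155-109519214, plus strand: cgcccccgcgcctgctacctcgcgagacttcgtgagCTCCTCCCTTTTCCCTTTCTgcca
Rps18, chr17:33955646-33955705, minus strand: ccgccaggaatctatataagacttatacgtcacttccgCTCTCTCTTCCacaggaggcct
Rpl28, chr7:4792925-4792984, plus strand: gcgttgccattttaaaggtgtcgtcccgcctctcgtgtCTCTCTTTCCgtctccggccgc
Rps12, chr10:23787190-23787249, minus strand: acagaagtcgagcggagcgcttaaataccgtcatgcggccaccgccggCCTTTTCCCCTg
Rpl13a, chr7:45128726-45128785, minus strand: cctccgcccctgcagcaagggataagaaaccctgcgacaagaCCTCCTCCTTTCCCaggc
Rps26, chr10:128626487-128626546, minus strand: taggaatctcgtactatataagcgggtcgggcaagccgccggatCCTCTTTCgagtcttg
Rps27l, chr9:66946046-66946105, plus strand: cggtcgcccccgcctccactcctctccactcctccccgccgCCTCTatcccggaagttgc
Rplp0, chr5:115559427-115559486, plus strand: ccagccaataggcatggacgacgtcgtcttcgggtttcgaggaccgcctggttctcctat

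The runs differ in length from 20 bases in Rpl27a to 5 in the first of the Rps27l starts, and the annotated Rplp0 start has none of 5 or more. RefSeq promoters were found for 36 of the 45 genes, 44 promoters in all. A C-led run of at least 8 pyrimidines opened within 10 bases of the start in 12 of the 44 (27.3%), against 7.25% of 32851 promoters of all genes. A run of at least 5 did so in 22 (50%), against 29% of all. At the annotated start itself, a C followed by at least 4 pyrimidines stood in 5 (11.4%), against 2.51% of all. The motif CCGGAAG, the core bound by Ets family factors, lay on either strand within the 300 bases around the start in 13 (29.5%), against 8.86% of all promoters. TATAAA was found in 13.6% of the members' promoters and in 13.6% of all. These are letter matches around annotated starts, and several genes have more than 1 annotated start. How genes with and without a run compare in signal was not tested.

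Signals are deposited intensities, some of them below 0, with arrays near a common trimmed mean of 150. Values under a floor of 15 were set to it before log2 was taken, and a probe set was tested where its mean reached the median of its chip. By this filter 47 probe sets of 39 member genes were tested in liver, 47 of 36 in hippocampus and 46 of 38 between tissues, and counts over tested members therefore do not speak for all 45. Arrays of the tissues differed in RNA quality measures: the ratio of 3′ to 5′ Gapdh signal was 1.89 to 3.26 in liver and 0.84 to 0.947 in hippocampus, and that of actin was 3.32 to 4.17 and 1.33 to 1.55. Tissue labels went with the markers. Summed intensity of 8 hepatocyte probe sets was 57007 to 74388 in liver and 520 to 910 in hippocampus (Apoa1 was above the floor in neither), and that of 8 neuronal probe sets was 62 to 107 and 5302 to 5347, with Nefl, Map2, Nefm and Camk2a never above the floor in liver. Summed macrophage markers (11 probe sets, with Marco never above the floor) were 1982 to 2087 in the liver controls and 1297 to 1555 in the livers of the oil diets, beside every liver comparison below. The part of these differences in the results was not tested.

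In liver, ribosomal protein transcripts stayed close to the control level on every oil diet. The question was whether either oil altered hepatic transcripts. Of 47 member probe sets 0 passed at an adjusted p of 0.05 on fungal oil, fish oil or both oils (limma, Benjamini-Hochberg adjustment over both chips), where 0% of all 6537 tested probe sets passed for each diet. At an unadjusted p of 0.05, members passed 1, 4 and 1 times of 47, against 9.16%, 11.1% and 9.9% of all probe sets. With 1 RNA per oil diet these tests take their error from the 2 control RNAs, and since no label says that those came from separate mice, the p-values measure only the spread between them, which may be technical. In bulk tissue, fewer cells of a type and less RNA per cell cannot be told apart.

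The members varied little among the 5 liver RNAs. Their median SD was 0.11 on the log2 scale, against 0.25 for all 3515 genes and 0.14 for 215 other genes whose mean intensity lies within the members' quartiles. The 2 controls differed by a median of 0.11 in size over 39 members and by 0.01 in direction. Rpl13a, a large subunit protein, varied most, with an SD of 0.47, and its controls read 63 and 142. Rps26 followed with 0.33, then the brighter Rpl28 probe set with 0.32 and Rpl12 with 0.26. Rpl23 read 2838 and 2997 in the controls and 2942, 2888 and 2854 on fungal oil, fish oil and both oils, a narrow band in which the oil values lie between the controls.

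**Figure D1:**
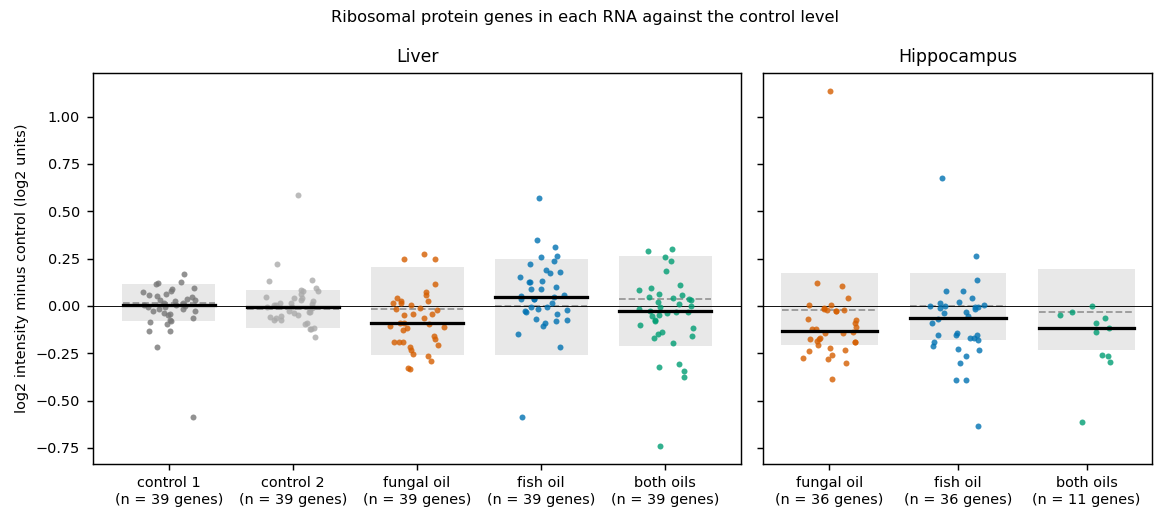
Log2 intensity of each tested ribosomal protein gene minus the control level (the mean of both control RNAs in liver, the control array in hippocampus), by RNA. Points are genes, black lines their medians, grey boxes the quartile range of all tested genes and dashed lines the median of all; member medians lie between −0.13 and 0.05 in the oil RNAs, within every grey box.

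On fungal oil the members' median log2 difference from control was −0.09, with 12 of 39 genes above and 27 below, while the median of all genes was −0.02. The 3′ to 5′ Gapdh ratio of this RNA was 2.48 on chip A and 2.51 on chip B, above both controls (2.07 and 1.91, then 2.23 and 1.99). The actin ratio was 3.87 on chip A, between the controls (3.94 and 3.42), and 4.17 on chip B, above both (3.71 and 3.38). The part of these ratios in the result was not tested. All 39 members lay within 0.5 log2 of control, as did 2731 of all 3515 genes. Rpl28, a large subunit protein, read 3820 and 3733 in controls and 2994 on fungal oil, a log2 difference of −0.33 ± 0.11 (SE, adjusted p = 0.566 by limma). Rps15 read 1834 and 2486 in controls and 1701 on fungal oil, a difference of −0.33 ± 0.23 (SE), and its controls lay further apart than that. Rps29, a small zinc-binding protein of the small subunit, read 3336 and 3130 in controls and 2641 on fungal oil, −0.29 ± 0.08 (SE, limma adjusted p = 0.537). It was the only member at an unadjusted p under 0.05. The next lowest were Rps3, a small subunit protein that also acts in DNA repair, at −0.27, Rpl4 at −0.25, Rpl36 at −0.23, Rpsa at −0.22 and Rpl10a at −0.21. At the other end Rpl5, which binds 5S ribosomal RNA, read 414 and 352 in controls and 461 on fungal oil, 0.27 ± 0.19 (SE). Rps26 was at 0.25, Rpl10 at 0.25 and Rpl22l1 at 0.12, followed by Rpl12 at 0.07, Rpl7a at 0.06, Rps4x at 0.04 and Rpl3 at 0.03. The median was −0.13 over 13 small subunit genes and −0.05 over 26 large subunit genes.

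On fish oil the median log2 difference was 0.05, with 24 of 39 genes above control and 15 below, and the median of all genes was 0.00. This direction depended on the processing: the median was −0.000739 with quantile normalization and −0.0066 on chip B alone. The 3′ to 5′ Gapdh ratio of this RNA was 3.26 on chip B, above both controls (2.23 and 1.99). On chip A it was 1.95, between the controls (2.07 and 1.91). The actin ratio was 3.33 on chip B, below both controls (3.71 and 3.38), and 3.49 on chip A, between them (3.94 and 3.42). The part of these ratios in the result was not tested. Rpl12, a protein at the base of the ribosomal stalk, read 1065 and 1283 in controls and 1737 on fish oil, 0.57 ± 0.15 (SE, limma adjusted p = 0.426). Rpl41, a very short basic peptide of the large subunit, read 5869 and 6093 in controls and 7407 on fish oil, 0.31 ± 0.06 (SE, limma adjusted p = 0.397). Both fish oil values lie above both controls and above the other oil diets. Rpl10, which completes the large subunit late in its maturation, was at 0.35, Rpl4 at 0.26, Rplp0 at 0.26, Rpl22 at 0.24, Rps18 at 0.22 and Rpl13a at 0.19. Rps26 was lowest: it read 173 and 172 in controls and 115 on fish oil, −0.58 ± 0.16 (SE, limma adjusted p = 0.429). It was followed by Rps3 at −0.22, Rpl8 at −0.15, Rps24 at −0.11, Rpl36 at −0.09, Rpl39 at −0.08, Rpl37a at −0.07 and Rps28 at −0.07. Within 0.5 log2 of control lay 37 of 39 members, all but Rpl12 and Rps26, and 2597 of all 3515 genes. Rpsa reached an unadjusted p under 0.05 with its dimmer probe set only (0.37), while the brighter one was at 0.05.

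With both oils the median was −0.03, with 16 genes above and 23 below, against 0.04 for all genes. Rpl28 had the largest difference from control of any member in liver: it read 2261 on both oils against 3820 and 3733 in the controls, −0.74 ± 0.11 (SE, limma adjusted p = 0.39). A second Rpl28 probe set on the same chip read 3171 against 3633 and 3048, a difference of −0.07 ± 0.17 (SE). The 2 probe sets of this gene thus gave differing values for the same RNA. Rpl13a was at −0.37 ± 0.61 (SE), Rps26 at −0.34, Rpl4 at −0.32, Rpl36 at −0.31, Rps29 at −0.20, Rpl8 at −0.17 and Rpl32l at −0.16. Rpl22l1, a paralog of Rpl22, read 624 and 593 in controls and 748 on both oils, 0.30 ± 0.10 (SE, limma adjusted p = 0.531). Rpl10 was at 0.29, Rpl7 at 0.26, Rps27l at 0.23, Rpl5 at 0.18, Rps4x at 0.11, Rpl12 at 0.09 and Rpl6 at 0.08. Of 13 small subunit genes 3 were above control and 10 below, as on fungal oil, and of 26 large subunit genes 13 were above and 13 below. For the interaction of the oils 0 of 47 member probe sets passed (0% of all by limma, and 9.29% of all at an unadjusted p of 0.05, against 1 of 47 members), and the median was −0.01.

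**Figure D2:**
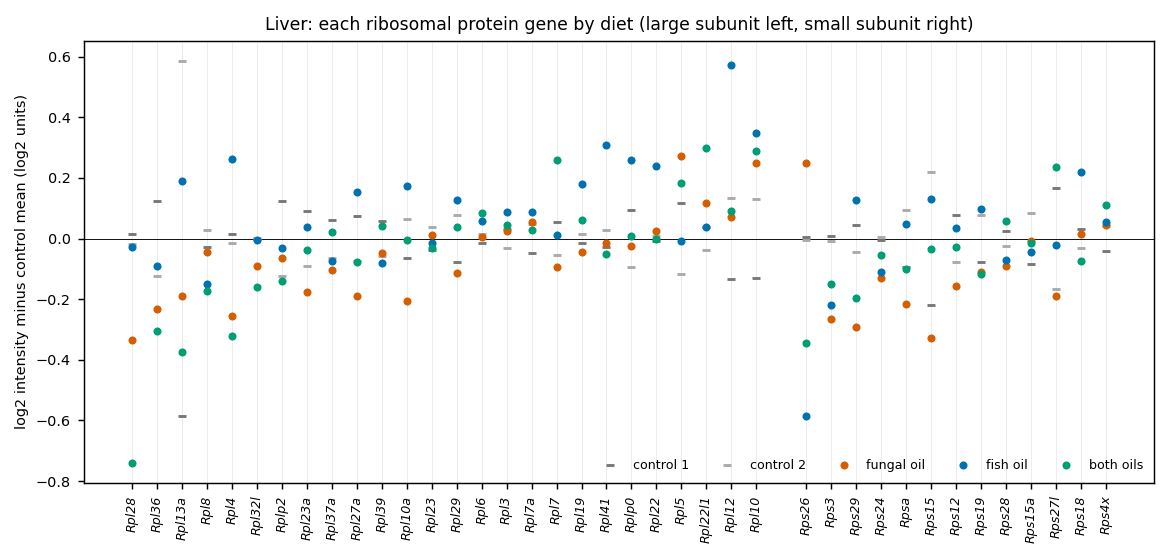
Log2 intensity in liver minus the mean of the 2 controls for each of the 39 tested genes, large subunit left and small subunit right, ordered by the mean over the oil diets. Dots are the oil diets and dashes the controls; Rpl28 on both oils (−0.74), Rps26 on fish oil (−0.58) and Rpl12 on fish oil (0.57) stand furthest out, and the Rpl13a controls lie 1.17 apart.

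Fungal and fish oil were set against each other directly. Fungal oil was lower for 32 of 39 genes and higher for 7, with a median log2 difference of −0.14 where the median of all genes was −0.03. Of 47 member probe sets 0 passed by limma (0% of all), and 6 had an unadjusted p under 0.05, against 8.99% of all, with a lowest adjusted p of 0.528. Rps26 gave the largest value and stood on the side of fungal oil, 205 against 115, or 0.83 ± 0.18 (SE). Rpl5 was at 0.28, Rpl8 at 0.11, Rpl22l1 at 0.08, and Rpl39, Rps15a and Rpl23 at 0.03 each. On the other side were Rpl4 at −0.52, Rpl12 at −0.50, Rps15 at −0.46, Rps29 at −0.42 ± 0.09 (SE), Rpl13a at −0.38, Rpl10a at −0.38, Rpl27a at −0.34 and Rpl41 at −0.32 ± 0.07 (SE). Each side of this comparison is a single RNA, so the difference between these 2 RNAs has no replicate of its own.

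The 3 oil RNAs were also set as 1 group against the 2 controls. Of 47 member probe sets 0 passed (limma, lowest adjusted p 0.672), against 4 of 6537 (0.0612%), and 0 members had an unadjusted p under 0.05, against 8.18% of all. The median was −0.03, with 16 of 39 genes above, and it was 0.0111, 0.00612 and 0.00445 without control 1, control 2 and the fungal oil RNA, so it has no settled direction. All 3 oil RNAs lay above both controls for 2 of 39 genes, Rpl10 and Rps4x, against 13.2% of all genes. They lay below both for 5, Rpl28, Rpl32l, Rpl8, Rps24 and Rps3, against 13.1% of all genes. Rps3 read 3301 and 3269 in controls and 2732, 2822 and 2960 on fungal oil, fish oil and both oils, so that the groups do not overlap. Rpl10 read 196 and 235 in controls and 255, 273 and 262 on the oils, 0.29 ± 0.14 (SE, limma adjusted p = 0.672), again without overlap. Rpl22l1 at 0.15 and Rpl12 at 0.24 followed Rpl10 on this side, and Rpl28 at −0.37 and Rps26 at −0.23 were furthest on the other.

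In hippocampus most ribosomal protein transcripts read slightly below the single control array on the oil diets, and 0 of 47 member probe sets passed a test of any oil against control (limma, lowest adjusted p 0.714; 0% of 6538 probe sets passed). At an unadjusted p of 0.05 members passed 4 times of 47, against 6.88% of all. Of 36 genes 31 were below control and 5 above, with a median log2 difference of −0.12, while the median of all genes was −0.03. The median was −0.12 for both the large and the small subunit. It rested on single arrays. Over genes with a tested chip B probe set it was −0.0987. The dim chip B probe set of Rpl7 enters that value, though a chip A probe set stands for Rpl7 elsewhere. On chip B, leaving out 1 oil array moved the median between −0.164 (without fish oil) and −0.0338 (without fungal oil). All oil arrays lay below the control for 23 of 36 genes, against 34.8% of all genes, and above it for Rpl23 and Rps26, against 29.7%. Every one of these ratios shares the same control array, so a deviation of that array enters all of them. For several lists, summed markers of other cells put the control outside the range of the fungal oil and fish oil RNAs. With a single control and so few oil RNAs, order alone puts it outside for most lists, so this shows no difference in cell content. The both oils RNA, measured on chip B only, is not in these sums. Astrocytes were at 1534 in the control against 1210 to 1333, oligodendrocytes at 1661 against 1750 to 1845 and endothelium at 307 against 429 to 465. Fibroblasts and smooth muscle were at 574 against 787 to 1246, and dividing cells at 302 against 413 to 487. Neuronal markers were at 5302 against 5314 to 5347. Macrophages, at 2106 against 2066 to 2088, and erythroid cells, at 2254 against 2321 to 3457, were also outside. The control lay within the oil values for choroid plexus (449, oils 276 to 750), lymphocytes (1226, oils 1168 to 1313) and hepatocytes (688, oils 520 to 910). The part of these markers in the result was not tested. Array by array, the member median was −0.13 on fungal oil (6 above, 30 below), −0.06 on fish oil (10 above, 25 below, with −0.15 over chip A and 0.003 over chip B genes) and −0.11 on both oils, where 11 genes of chip B were measured and all 11 lay below.

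Rplp0, the stalk protein that anchors Rplp1 and Rplp2 and serves in many laboratories as a reference gene, read 2363 in the control and 1942, 2008 and 1969 on fungal oil, fish oil and both oils. Its difference was −0.26 ± 0.10 (SE, limma adjusted p = 0.714), and its other 2 probe sets were at −0.20 and −0.19. Rps15a read 930 in the control, 776 on fungal oil and 773 on fish oil, −0.26 ± 0.08 (SE, limma adjusted p = 0.714). Rpl22l1 read 871, 790 and 562 in that order, −0.39 ± 0.25 (SE), with the fish oil array far below the other 2. The brighter Rpl28 probe set read 2722 in the control and 2248, 2327 and 1778 on the oils, −0.37 ± 0.18 (SE). The lower Rpl28 probe set read 1906 in the control and 1454, 1454 and 2091, so that it was lower on the single oils and higher on both. Rpl13a was at −0.32, Rps28 at −0.23, and Rpl19 and Rpl12 at −0.20 each. Rpl19, with an unadjusted p of 0.0311, was the last of the 4 members under 0.05, beside Rplp0, Rps15a and Rps26.

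Rps26 lay furthest above the control. It read 107 in the control, 235 on fungal oil and 171 on fish oil, 0.91 ± 0.26 (SE, limma adjusted p = 0.714), and chip B carries no member probe set for it. Rps26 sits near the exit of the messenger RNA channel and its proportion in ribosomes is known to vary. Its signal is dim among the members, and in liver the same probe set read 115 to 205. Rpl23 read 1879 in the control, 1932 on fungal oil and 1985 on fish oil, a log2 difference of 0.06. Rpl8 at 0.06, Rps15 at 0.05 and Rpl3 at 0.01 were the other members above 0. The hippocampus probe sets of Rpl7 disagreed, at −0.16 with the brighter and 0.34 with the dimmer one.

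**Figure D3:**
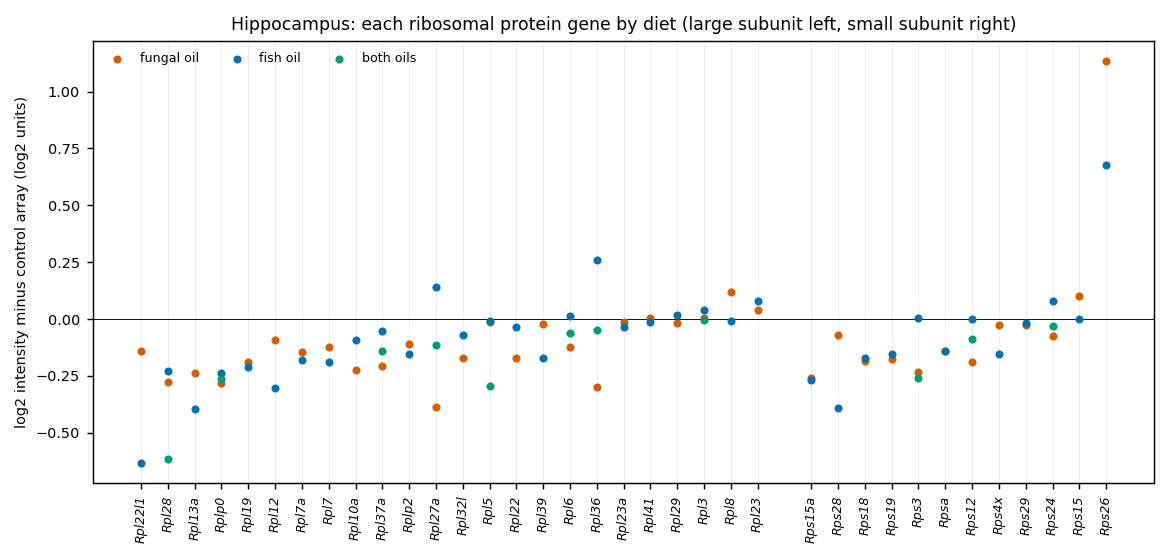
Log2 intensity in hippocampus minus the control array for each of the 36 tested genes, large subunit left and small subunit right. Dots are the oil diets, with both oils measured on chip B only; 31 genes average below 0, and Rps26 stands alone at the top.

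Whether the oil difference itself differed between tissues was tested with an interaction term. Of 46 member probe sets 0 passed (limma, lowest adjusted p 0.739), against 3 of 6535 (0.0459%), and 1 had an unadjusted p under 0.05, against 6.64% of all. The median of liver minus hippocampus was 0.08, with 29 of 38 genes above 0, against 0.01 for all genes. Rps26 had the largest value, −1.13 ± 0.46 (SE), followed on the other side by Rpl22l1 at 0.54, Rpl12 at 0.44 and Rplp0 at 0.34. At a precision set by 1 hippocampus control, a difference in response between tissues was detected for 0 members.

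Between tissues, 3 member genes that were bright in both read higher in liver beyond the threshold: Rpl36, Rplp0 and Rpl5. Rps27l and Rpl10 also passed it, but they entered the test only through liver, where they are high, so their calls support nothing. A gene was called here if it was at least 2-fold apart with an adjusted p under 0.05, by limma with terms for tissue and diet, each array first being set to the same trimmed mean. By that rule 8 of 46 member probe sets were called, all higher in liver, while 49.8% of all 6535 probe sets were called, 20.3% higher and 29.6% lower in liver. With quantile normalization 6 of 46 were called, 1 of them lower, the Rpl3 probe set, against 49.2% of all, and with arrays centred on their median 16 of 46, against 49.7%. Among probe sets bright in both tissues, a filter added after the values were seen, 6 of 44 members were called, all higher in liver, where 37.8% of all 5181 were called and 13.5% were higher. By probe set the members' share of higher calls is thus close to that background. By gene, 3 of 36 members bright in both tissues were called higher, against 14.7% of all 2838 genes. By the adjusted p alone 28 of 46 were higher and 1 was lower in liver, against 29.8% and 40% of all probe sets, or 69.8% in either direction. The median size of the difference was 0.41 on the log2 scale over 38 members and 1.03 over 3558 genes.

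The overall level of the members between tissues could not be settled, because it turned with the scaling of the arrays. At a common trimmed mean the members' median log2 difference was 0.35 (30 of 38 above 0) and that of all genes −0.20. With arrays centred on their median the values were 0.67 (37 above) and 0.13. With quantile normalization they were −0.19 (13 above) and 0.01. Relative to the median of all genes the members stood at 0.55, 0.54 and −0.19 in that order. Over the 3 scalings 13 genes were above 0 throughout and Rpl13a alone was below 0 throughout, and Rpl36 and Rpl5 were called throughout. Rps27l and Rpl10 were called throughout too, but they entered only through liver, so their calls support nothing.

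**Figure D4:**
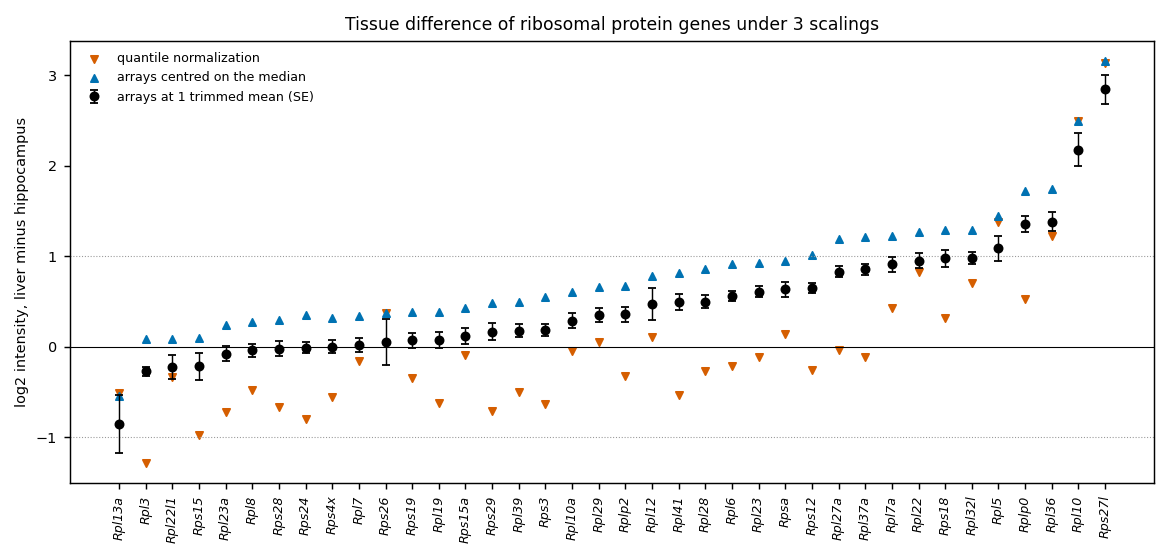
Log2 intensity of liver minus hippocampus for each of 38 tested genes, in order of the values at a common trimmed mean (black, with SE), beside the values with quantile normalization (orange) and with arrays centred on the median (blue); dotted lines mark 2-fold. The 3 scalings give medians of 0.35, −0.19 and 0.67, and Rpl36 and Rpl5, called under each scaling, are among the 5 highest black points. So are Rps27l and Rpl10, which entered the test only through liver, so their calls support nothing.

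Rps27l, a near copy of Rps27 known as a p53-responsive gene, is described by its values. Its probe set read 330 and 262 in the liver controls and 258, 290 and 346 on fungal oil, fish oil and both oils, and 41, 40 and 37 in hippocampus control, fungal oil and fish oil. The log2 difference was 2.85 ± 0.16 (SE), and the tissues do not overlap. The second Rps27l probe set, whose name gives the same source sequence, read 20 to 60 in liver and 34 to 48 in hippocampus, below the brightness filter in both, and showed no such gap. Rpl10 read 196 to 273 in liver and 43 to 72 in hippocampus, 2.18 ± 0.18 (SE). Neither probe set passed the brightness filter in hippocampus, where the median of the chip A arrays was 59 to 62.

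Rplp0 read 4741 to 6058 in liver and 1942 to 2363 in hippocampus, 1.36 ± 0.09 (SE, limma adjusted p = 1.3e-05). Its other 2 probe sets gave 1.39 and 1.14, so that all 3 were called. With quantile normalization Rplp0 was at 0.53 and was not called. Rpl36 read 1723 to 2319 in liver and 618 to 912 in hippocampus, 1.38 ± 0.10 (SE, limma adjusted p = 2.08e-05), and its probe set on chip A gave 1.31. Rpl5 read 352 to 461 in liver and 168 to 206 in hippocampus, 1.09 ± 0.14 (SE, limma adjusted p = 0.000359). Leaving out the RNA of mice fed both oils, of liver or of hippocampus, put Rpl5 at 0.999, just under 2-fold. Just under 2-fold were Rpl32l at 0.98, Rps18 at 0.98 and Rpl22 at 0.95, which lay above 0 under the 3 scalings.

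Rpl7a was at 0.91 and above 0 under each scaling. Rpl37a at 0.86, Rpl27a at 0.83 and Rps12 at 0.65 did not hold their direction, with −0.12, −0.03 and −0.26 under quantile normalization. Rpl3, at the peptidyl transferase centre of the large subunit, read 3449 to 3752 in liver and 4397 to 4535 in hippocampus, without overlap. Its log2 difference was −0.27 ± 0.05 (SE, limma adjusted p = 0.0024), −1.28 with quantile normalization (called lower, limma adjusted p = 4.68e-07) and 0.09 with arrays centred on the median, so that its direction depends on the scaling. Rpl13a read 63 to 142 in liver and 150 to 197 in hippocampus, −0.86 ± 0.32 (SE, limma adjusted p = 0.0517), and did not pass. Rpl22l1 was at −0.23, Rps15 at −0.22, Rpl23a at −0.08, Rpl8 at −0.04, Rps28 at −0.02 and Rps24 at −0.01. Of these 8 genes below 0, Rpl13a alone was also below 0 with arrays centred on the median. All liver RNAs lay above all hippocampus RNAs for 20 of 38 members, against 30.5% of all genes, and below for Rpl3 and Rpl13a, against 39.4%. The 20 include Rps27l and Rpl10, which entered only through liver. These counts hold for arrays at a common trimmed mean and were not made under the other scalings.

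The median was 0.50 over 25 large subunit genes and 0.12 over 13 small subunit genes. The difference between the subunits was not tested.

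**Figure D5:**
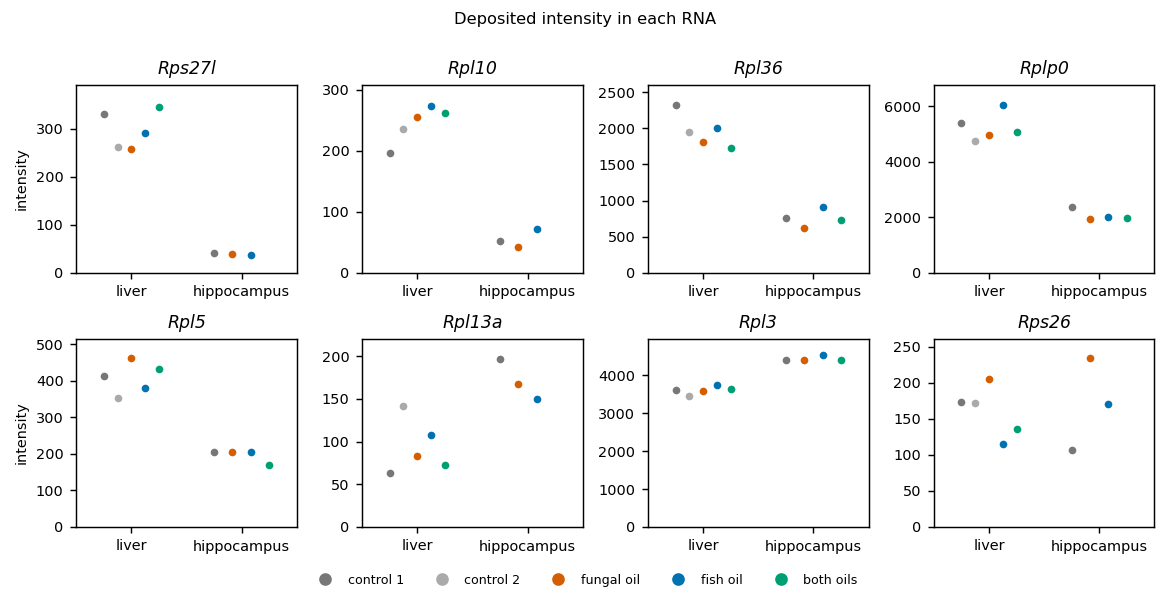
Deposited intensity in each RNA for the 5 genes past the tissue threshold (Rps27l and Rpl10 are dim in hippocampus) and for Rpl13a, Rpl3 and Rps26, with liver left and hippocampus right in each panel and colours for diets. Each panel has its own linear axis from 0; for the first 5 genes every liver point is above every hippocampus point, for Rpl13a and Rpl3 every one is below, and for Rps26 the tissues overlap.

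The brightest members were Rpl41, Rpl37a, Rplp0, Rps12, Rpl27a and Rpl3 in liver, and Rpl41, Rpl3, Rpl37a, Rps12, Rps29 and Rps3 in hippocampus. Probe sets bind their targets unequally, so these intensities are not an order of transcript levels. Some member probe sets gave little signal, including those of core ribosomal proteins. In liver 12 of the 59 did not pass the brightness filter, and 7 had a liver mean at or below 0. Rpl32 read −41 to −2 in liver and −21 to 16 in hippocampus, Rpl34 −31 to 22 and −11 to 0, and Rpl27 −11 to 21 and −11 to 4. Rpl39l, a paralog of Rpl39 known from testis, read −62 to −14 in liver and −23 to −12 in hippocampus, and Rps4l −117 to −90 and −115 to −62. Rps7, a core small subunit protein, read 6 to 29 and −30 to 4. Rpl10a and Rpsa each had a probe set below 0 on every array beside a bright one: Rpl10a read 1022 to 1328 in liver with the bright one and −93 to −51 with the other. All 39 probe sets ending in f_at passed in liver, against 1 of 8 ending in plain at and 6 of 10 ending in s_at. Most values of the members therefore come from probe sets that may match related sequences, pseudogene transcripts included.

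Of 11 genes with several probe sets, Rplp0, Rpl28 and Rpsa had tested ones that lay over 0.5 log2 apart in at least 1 comparison. Rplp0 on fish oil in liver was at 0.26 and 0.18 with 2 probe sets and at −0.37 with the third, which read 4211 and 4021 in controls and 3194 on fish oil. The direction of Rplp0 on fish oil therefore depends on the probe set. The 2 tested Rpsa probe sets gave 0.63 and 0.05 between tissues, and those of Rpl28 gave −0.74 and −0.07 on both oils in liver. Rpsa is both a small subunit protein and a cell surface receptor for laminin. The 2 tested Rplp2 probe sets, for the acidic stalk protein, differed by no more than 0.22 in any comparison.

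Genes that act with the ribosome were read from the same fits. In liver 0 genes of the lists for mitochondrial ribosomal proteins, elongation factors, other TOP messenger RNAs, initiation factors, ribosome biogenesis and growth signalling passed for any oil, and 0 did so in hippocampus. Fau, whose product is a ubiquitin-like protein fused to a small subunit protein, was at 0.02 in liver and −0.04 in hippocampus for any oil. Eef1a1, which brings transfer RNA to the ribosome, was at −0.24 and 0.11, Eef2, which moves the ribosome along, at −0.45 (limma adjusted p = 0.368) and 0.17, and Larp1, which binds TOP messenger RNAs, at −0.02 and 0.01.

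Between tissues the median of 28 mitochondrial ribosomal protein genes was 0.60, with 4 called, all higher in liver, where 21.8% of all 3558 genes were called higher and 28% lower: Mrpl57 at 2.66, Mrps18b at 1.49, Mrps26 at 1.18 and Mrps24 at 1.06. These values hold for arrays at a common trimmed mean, and the other scalings were not run for these lists. Mrpl57 and Mrps26 entered the test only through liver, where they are high, so their calls support nothing. Of 13 other TOP messenger RNAs 1 was called higher, Tpt1 at 1.36, and 2 lower, Nap1l1 at −2.35 and Vim at −1.50, with a median of −0.24. Of 6 elongation factor genes Eef1d was called higher, at 1.05, and Eef1a2, the form of neurons and muscle, and Eef1g, at −1.11, were called lower. Eef1a2 entered the test only through hippocampus, where it is high, so its call supports nothing. The medians were −0.23 for 28 initiation factor genes, −0.26 for 15 biogenesis genes and −0.36 for 9 growth signalling genes, beside −0.20 for all genes. The translation genes outside the ribosome thus lay on both sides, and the lists were not tested as sets.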

How the data were processed

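For each array the authors deposited a whole-number intensity of every probe set, some below 0. How background and scaling were done is not given in the sources used here. Titles of all hippocampus arrays end in ab150 and those of all liver arrays in sc. What these endings mean is not given, and tissue cannot be told apart from them. Probe sets were named from the platform annotation, and only those with 1 symbol were used. Intensities were floored at 15 (0.1 times 150), logged to base 2 and filtered at the chip median. Fits used limma 3.58.1 in R 4.3.3, with an intensity trend, on all probe sets per chip, with p-values adjusted over both chips. Liver was fitted as 4 diets (1 residual degree of freedom), and both tissues as any oil against control. Tissue fits first set arrays to a trimmed mean of 150, trimming 2% at each end. Where probe sets shared a gene, the brightest stood for it. The fits were also run on simulated chip B data with noise from the 2 liver controls. That run cannot speak to chip A, to diets with a single RNA or to the scaling of the tissues. The members and lists were chosen with earlier results of these data known. The named members were up to 8 with the largest rises and 8 with the largest falls in each comparison, the 6 brightest of each tissue, members whose probe sets disagree by over 0.5, members below the filter, stalk proteins, Fau and paralogs. Alternatives were other scalings, floors, filters, designs, chips and left-out RNAs. Figures were drawn with matplotlib.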

Additional observations from a re-analysis of the deposited data

Results flagged for a closer look

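In a group of 4 or 5 RNAs, chance sets 1 value apart by the measure used here in about 1 of 20 groups, and 50 groups were examined, 39 in liver and 11 in hippocampus. Of these, 5 had a value set apart. In liver Rpl22 read 1289 on fish oil, with the nearest other RNA at 1111, and Rpl41 read 7407 on fish oil, with the nearest at 6093. In hippocampus Rplp0 read 2363 in the control, with the nearest at 2008, Rpl5 read 168 on both oils, with the nearest at 204, and Rpl3 read 4535 on fish oil, with the nearest at 4420. Each is a single RNA of its diet and tissue.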

How the results depend on the processing

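Under the alternatives 194 medians and counts stayed within the spread of array medians or within 1.5 times, 53 medians moved by more, 4 counts were over 1.5 times larger and 2 smaller by as much. Many of the 194 are counts of called probe sets that were 0 and stayed 0. They therefore do not show how steady the medians were. For the liver comparisons that spread was 0.0059 and came from the medians of the 2 controls only. The sign turned 7 times: for fish oil in liver 2 times, any oil in liver 3, fish oil in hippocampus 1 and the tissue median 1. Requiring brightness in both tissues, chosen after seeing the data, gave a tissue median of 0.319. The members' median on fungal oil was −0.11 with quantile normalization, −0.0548 with median centring, −0.0466 without a filter, −0.0641 with the 75th percentile filter, −0.0769 with chip A, −0.129 with chip B and −0.0896 to −0.0632 without either control. On fish oil it was, in the same order, −0.000739, 0.0579, 0.0361, 0.0388, 0.0709 and −0.0066, then 0.0361 with the mean over probe sets, 0.0664 with an additive fit, and 0.0488 to 0.0561 without either control. On both oils it was −0.0564, −0.0559, −0.00414 and −0.016 with the first 4 settings and −0.0405 to −0.00546 without either control. Fungal minus fish oil was −0.149, −0.119, −0.0868 and −0.107, then −0.0984 with the mean over probe sets, −0.187 on chip A and −0.0637 on chip B. Without a filter 2 member probe sets were called for fungal oil, 2 for fungal minus fish oil and 2 for the interaction of the oils, among many values at the floor. Any oil in liver was −0.0486 with quantile normalization, −0.0208 with median centring, −0.0124 without a filter, −0.0177 on chip A, −0.0495 on chip B, and −0.0387 to 0.0111 without each RNA. In hippocampus any oil was −0.0677 with an additive fit on chip B and −0.164 to −0.0338 without each oil RNA on chip B (−0.0744 without both oils), fish oil was −0.107 with quantile normalization, −0.147 with chip A and 0.00853 with chip B, and fungal oil was −0.198 on chip B. With all hippocampus arrays, chip B alone counts the dim Rpl7 probe set. The tissue median was −0.186 with quantile normalization, 0.667 with median centring, 0.199 without a filter, 0.288 on chip A, 0.648 on chip B and 0.312 to 0.376 without each RNA, and 16 member probe sets were called with median centring, 4 on chip A, 4 on chip B and 7 to 12 without each RNA. The interaction of tissue and oil ranged from 0.0426 to 0.132 without each RNA. Of single genes between tissues, Rpl37a (−0.117) and Rps12 (−0.26) reversed with quantile normalization and Rpl3 (0.091) with median centring. The cause was not tested.

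Without either control the liver diets leave no residual degree of freedom, so those medians have no test. No pairing by replicate number was possible because the groups share fewer than 2 replicate numbers. The tissue fit matches liver and hippocampus by diet, and without that term its median was 0.351. Each oil diet has 1 RNA per tissue, so precision is limited by how few arrays there are. A lone hippocampus control is assumed to vary like the oil RNAs.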
